A study of Mus musculus with 124 samples.

Results

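Potassium channel genes were taken by symbol from the table of the dorsal dentate gyrus (dDG), the upper part of the hippocampal region that holds the granule neurons. Of 24409 symbols in that table, 92 began with Kcn followed by letters and a number. By the letters of the symbol, 40 were voltage-gated, 15 inward rectifier, 14 two-pore, 8 calcium-activated or of the related Slo family, and 15 auxiliary subunits. The family was taken up because Kcnb2 was lower in hCG than in Ctrl dDG, so dDG calls only describe these libraries and no p of a single member is printed for dDG.

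The study followed mouse oocytes, blastocysts and adult offspring after ovulation was triggered with human chorionic gonadotropin (hCG), a hormone that acts on the receptor of luteinising hormone. hCG females received 7.5 IU by intraperitoneal injection in natural estrus without PMSG priming, and their metaphase II oocytes were taken 14 h later. Ctrl females in estrus received no hCG; for oocytes they were housed with a vasectomised male, whose mating left a vaginal plug. Blastocysts of both groups were flushed from the uterus at E3.5, and dDG of both groups came from offspring aged 8 weeks under 350 mg/kg tribromoethanol, perfused with saline. The labels used here give neither strain, sex and litter of the offspring nor which libraries came from separate dams, so p-values measure the spread between these libraries, which may share a source.

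There were 6 hCG and 6 Ctrl dDG libraries, 6 hCG and 6 Ctrl oocyte libraries, and 28 hCG and 28 Ctrl blastocyst libraries. Total counts were 15931304 to 17307310 in hCG and 14991587 to 17859656 in Ctrl dDG, and 4174886 to 5346134 in hCG and 2379861 to 6924189 in Ctrl oocytes. Blastocyst libraries held an estimated 4263369 to 9259357 reads in hCG and 3043231 to 10859379 in Ctrl. Levels are given as CPM, counts scaled to the library total. CPM is not corrected for transcript length, so levels are compared between groups and not between genes. In dDG, summed CPM of 9 granule neuron markers was 1730 to 2080 in hCG and 1190 to 2010 in Ctrl libraries, and no granule marker was at 0. Libraries that stood apart included hCG dDG library 6, high in choroid plexus markers. A further 5 hCG blastocysts (1, 3, 4, 22 and 23) held both Xist and Y-linked transcripts at 50 CPM or more. Ctrl blastocysts 12 and 26 also stood apart, with 10382 and 10720 genes above 0. Every other blastocyst had at least 12203, and no fit left out either of these Ctrl blastocysts.

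Potassium channels set the resting potential of neurons and end their action potentials. Voltage-gated channels open on depolarisation, inward rectifiers hold the membrane near rest, two-pore channels carry background leak, and calcium-activated channels follow each spike with a hyperpolarisation. Auxiliary subunits change how the pore-forming subunits open or reach the membrane. In the dentate gyrus these currents are known for keeping granule neurons hard to excite.

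The number of members measured differed between the materials. Library method and depth differed too, and their part in these numbers was not tested. At least 1 CPM on average was found for 73 members in dDG, 17 in oocytes and 15 in blastocysts. In dDG, 73 members passed the filter on low counts and were fitted; 19 did not pass, and of these Kcna10, Kcnj1, Kcnk16, Kcnmb3 and Kcnv2 had no count in any library, which allows a level of up to 0.0297 CPM over the hCG and 0.03 CPM over the Ctrl libraries (3 counts of each group's total, counting error only). In oocytes 67 members had a row and 12 passed the filter; in blastocysts all 92 had a row and 9 passed.

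In dDG, 12 of the 73 fitted members (16.4%) had an adjusted p below 0.05 in the fit across all genes, against a background of 7.86% of 13874 genes. The contrast was the one that chose the family, so nothing is read from that excess. Of these 12, 6 were higher in hCG (background 4.67%) and 6 were lower (background 3.19%). The ranges of the hCG and Ctrl libraries did not overlap for 6 of the 73 members, against a background of 4.5% of all genes. The median log2 fold change of the fitted members was -0.06, with 27 above and 46 below 0. Over all genes the median was 0.00497, with 48.9% below 0. In tissue, fewer cells of a type and less RNA per cell cannot be told apart.

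**Figure D1:**
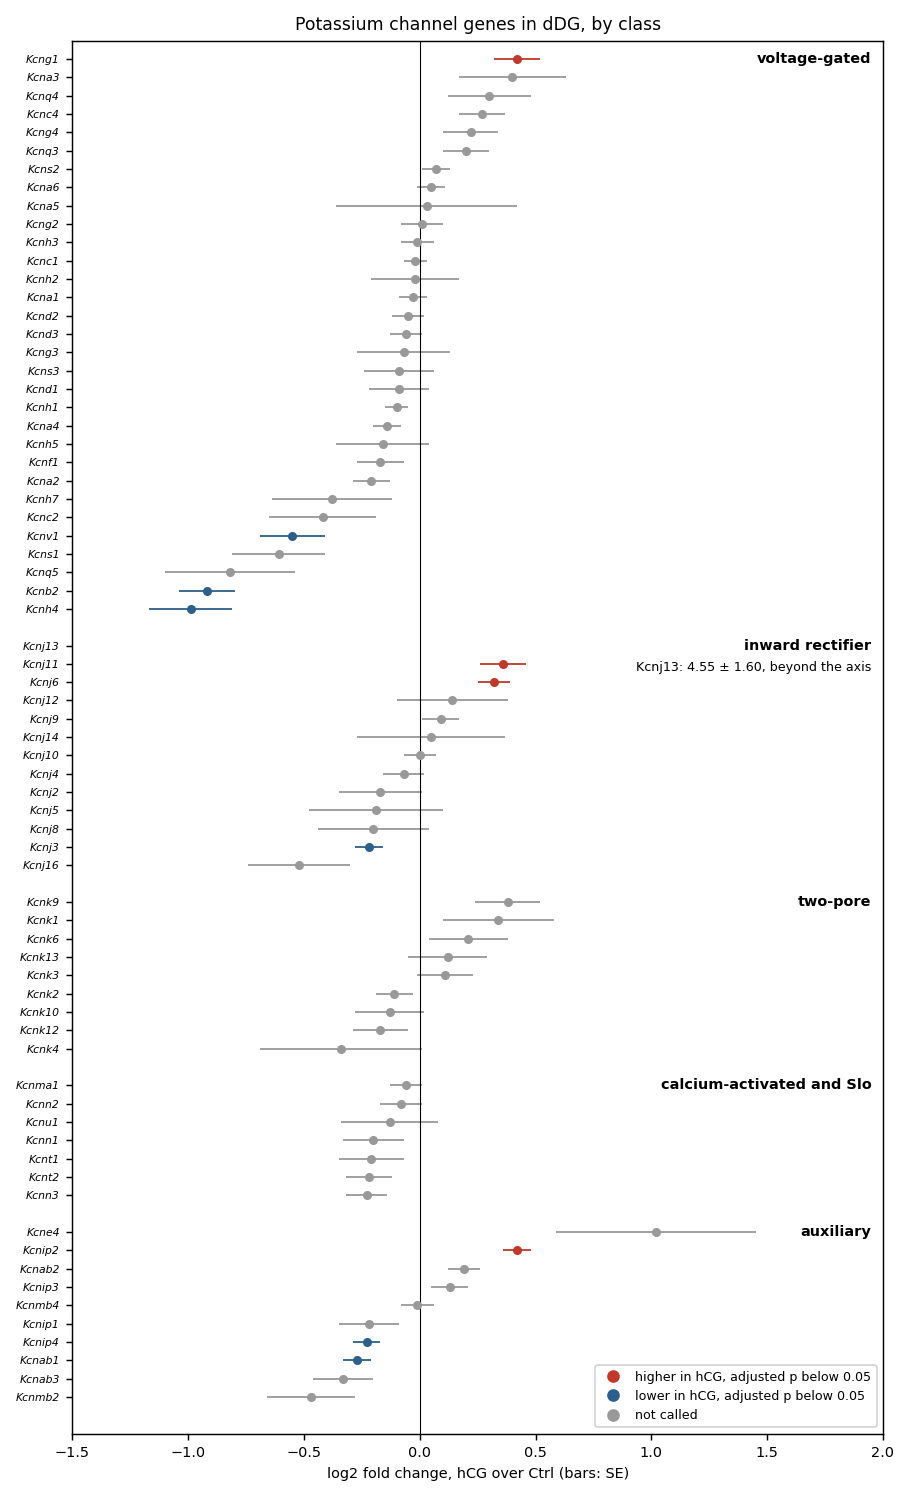
Log2 fold change of hCG over Ctrl dDG for 70 of the 73 fitted potassium channel genes, grouped by class and ordered by size, with standard error as bars and adjusted p below 0.05 in colour; Kcnj13, at 4.55, lies beyond the axis and is written in. Members called higher and lower in hCG are mixed among voltage-gated, inward rectifier and auxiliary genes. All 7 calcium-activated and Slo members lie below 0 without any of them being called, and 48.9% of all genes lie below 0.

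Of 34 fitted voltage-gated members, 3 were called higher in hCG dDG and 3 lower, at an adjusted p below 0.05. Log2 fold changes were above 0 for 12 of the 34 and below 0 for 22. Of all genes, 4.67% were called higher and 3.19% lower. Kcnb2, a delayed rectifier subunit of the neuronal cell body (chr1:15286925-15723751, GRCm38.p6), was the gene the family was taken up for. It measured 4.24, 5.01 and 5.9 CPM (lowest, median and highest) in hCG libraries, against 7.69, 9.81 and 10.8 CPM in Ctrl libraries. Every hCG library lay below every Ctrl library, and the log2 fold change was -0.92 ± 0.12 (SE). Those levels rest on 505 counts over the hCG and 958 over the Ctrl libraries, all from a single listed transcript.

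Kcnh4, a member of the ether-à-go-go family (chr11:100740378-100760115), measured 2.26, 3.23 and 3.96 CPM in hCG and 5.26, 5.99 and 8.88 CPM in Ctrl libraries. No hCG library reached the lowest Ctrl library, and the log2 fold change was -0.99 ± 0.18. Its RefSeq promoter (chr11:100759729-100760028, minus strand, GRCm38.p6) is shown because the gene separated the groups and because the study also profiled DNA methylation, whose libraries are not analysed here. The promoter entry lies inside the listed gene span. Capitals mark CG dinucleotides, the sites of methylation.
Kcnh4: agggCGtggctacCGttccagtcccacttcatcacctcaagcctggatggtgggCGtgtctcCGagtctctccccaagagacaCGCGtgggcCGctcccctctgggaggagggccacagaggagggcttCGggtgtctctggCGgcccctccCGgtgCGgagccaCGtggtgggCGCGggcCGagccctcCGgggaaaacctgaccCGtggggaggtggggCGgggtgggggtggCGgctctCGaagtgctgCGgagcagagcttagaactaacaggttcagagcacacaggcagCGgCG
The sequence runs from 250 bases before to 50 after the start and holds 23 CG dinucleotides with 68.7% G and C. Fewer CG dinucleotides are found in 78.5% of the 32851 promoters of the same length in the table.

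Modifier subunits are silent on their own and change delayed rectifiers when they assemble with them. Kcnv1, such a modifier, measured 27.5, 32.9 and 47.4 CPM in hCG and 43.3, 51 and 60.6 CPM in Ctrl libraries, with all 6 hCG libraries below the Ctrl median and some overlap. Its log2 fold change was -0.55 ± 0.14. Kcng1, another modifier, went the other way, with 40.5, 61.3 and 66.5 CPM in hCG and 38.2, 43.6 and 46.1 CPM in Ctrl libraries. Of the hCG libraries 5 lay above the Ctrl median, and the log2 fold change was 0.42 ± 0.10. A further modifier, Kcns1, was not called at -0.61 ± 0.20, with 2.51 to 5.44 CPM in hCG and 4.84 to 8.29 CPM in Ctrl libraries.

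Kcnq5, a subunit of the M-current that restrains repetitive firing, was not called at -0.82 ± 0.28. Kcnq5 spread widely, with 14.3 to 34.6 CPM in hCG and 29.1 to 84.8 CPM in Ctrl libraries. Kcnq3, a subunit of the same current, was not called at 0.20 ± 0.10, with 19.6 to 28.5 CPM in hCG and 18.5 to 27.1 CPM in Ctrl libraries.

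Among inward rectifiers, 2 were called higher and 1 lower of 13 fitted, beside 4.67% of all genes higher and 3.19% lower. Kcnj6, a G-protein-gated subunit, measured 61.4, 69 and 74.2 CPM in hCG and 45.1, 55.9 and 60.2 CPM in Ctrl libraries. The groups did not overlap, and the log2 fold change was 0.32 ± 0.07. Kcnj3, the G-protein-gated subunit that pairs with Kcnj6, was lower, with 214, 224 and 251 CPM in hCG and 235, 267 and 305 CPM in Ctrl libraries. All 6 hCG libraries lay below the Ctrl median with overlapping ranges, at a log2 fold change of -0.22 ± 0.06. Further G-protein-gated subunits, Kcnj9 and Kcnj5, were not called at 0.09 ± 0.08 and -0.19 ± 0.29.

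The RefSeq promoter of Kcnj3 (chr2:55435720-55436019, plus strand) is shown because the gene was called and has a single promoter entry, which lies inside the listed gene span (chr2:55411798-55598145). CG dinucleotides are in capitals.
Kcnj3: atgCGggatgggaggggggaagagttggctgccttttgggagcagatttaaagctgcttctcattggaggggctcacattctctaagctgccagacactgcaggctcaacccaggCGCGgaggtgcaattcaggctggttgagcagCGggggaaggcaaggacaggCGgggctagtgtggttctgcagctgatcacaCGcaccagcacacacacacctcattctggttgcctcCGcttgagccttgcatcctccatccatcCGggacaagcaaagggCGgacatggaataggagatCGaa
It holds 10 CG dinucleotides and 57.7% G and C, and 56.5% of all promoters hold fewer.

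Kcnj11 is the pore of the ATP-sensitive potassium channel, and Abcc8 is the sulfonylurea receptor that surrounds it. The genes are neighbours on chromosome 7 (Kcnj11 chr7:46097123-46100952, Abcc8 chr7:46104523-46180039, with 3570 bases between them). Kcnj8, the other pore gene of such channels, was not called at -0.20 ± 0.24. Kcnj11 measured 69.1, 74.4 and 90.3 CPM in hCG and 45.2, 61.8 and 71.2 CPM in Ctrl libraries, all 6 hCG libraries above the Ctrl median, at a log2 fold change of 0.36 ± 0.10. Abcc8, from a list of 20 partner genes, measured 61.3, 72.8 and 86.2 CPM in hCG and 41.5, 44.8 and 51 CPM in Ctrl libraries. The Abcc8 groups did not overlap, and the log2 fold change was 0.70 ± 0.08.

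**Figure D2:**
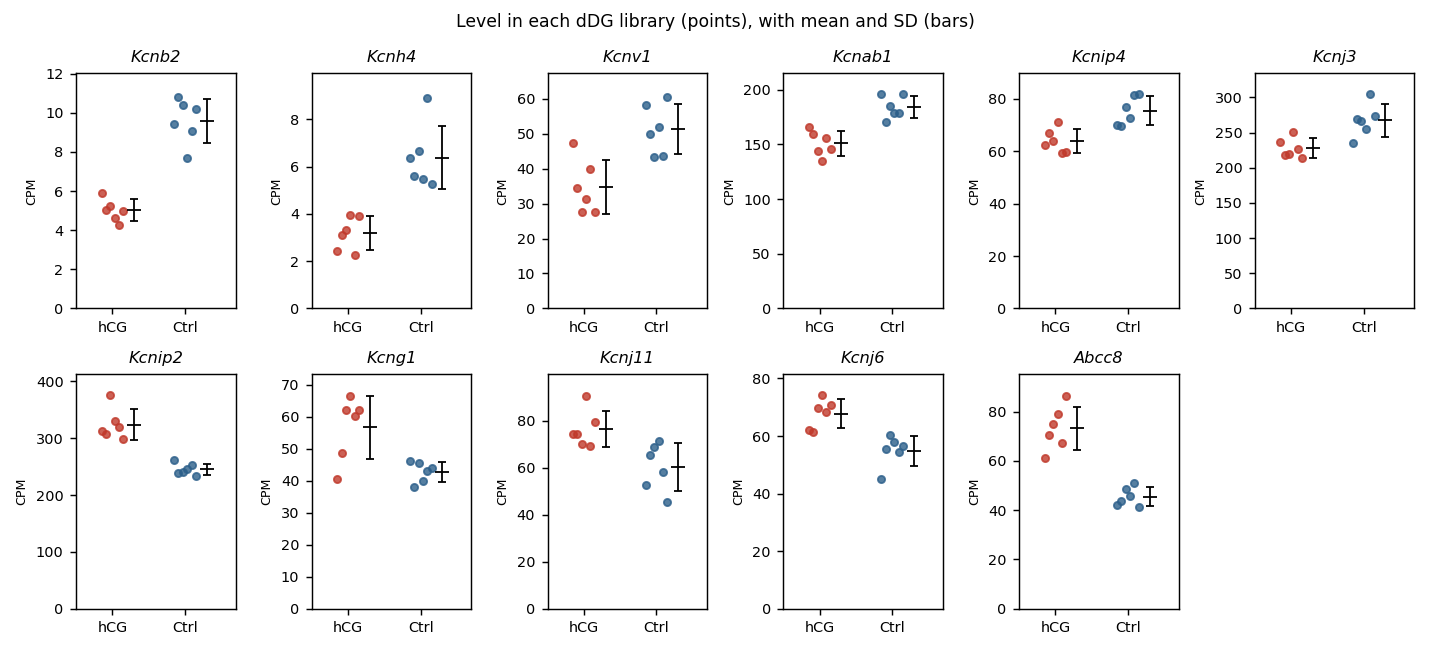
CPM in each dDG library (points; 6 hCG on the left, 6 Ctrl on the right of each panel) with mean and SD as bars, for 10 of the 12 called members and the partner gene Abcc8. hCG points lie wholly below Ctrl points for Kcnb2, Kcnh4 and Kcnab1 and wholly above them for Kcnip2, Kcnj6 and Abcc8.

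Kcnj13, an inward rectifier of epithelia such as the choroid plexus, and Kcne2, an auxiliary subunit of the same epithelium, stood apart in a single library. Kcnj13 measured 62.3 CPM in hCG library 6, 0.0628 to 2.07 CPM in the other hCG libraries and 0.0617 to 0.931 CPM in Ctrl libraries. Kcne2 measured 53.4 CPM in hCG library 6, 0.173 to 0.304 CPM in the other hCG libraries and 0.056 to 0.461 CPM in Ctrl libraries. The summed CPM of 10 choroid plexus markers moved with them, at 90.3, 138 and 13000 in hCG libraries against 71.1, 138 and 205 in Ctrl libraries, with no marker at 0 throughout. The fitted log2 fold change of Kcnj13 was 4.55 ± 1.60 with hCG library 6 and 1.09 without it, and it was not called.

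**Figure D3:**
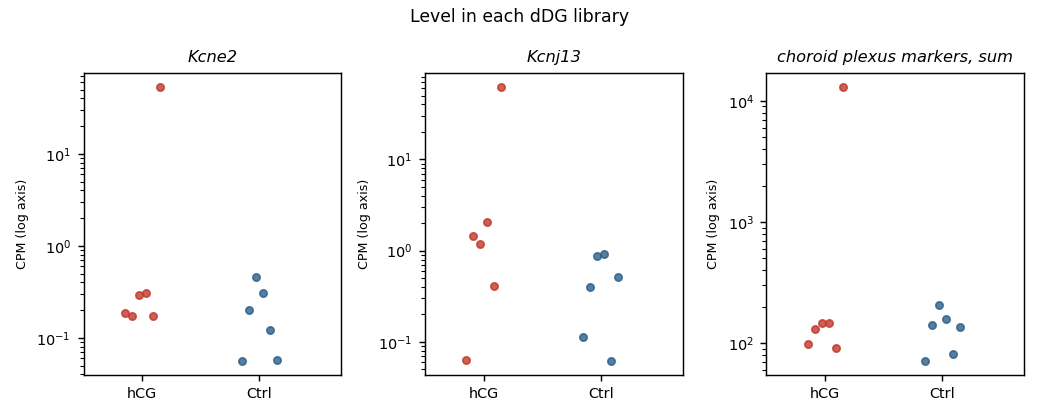
CPM on a log axis in each dDG library (points, hCG left and Ctrl right) for Kcne2, Kcnj13 and the sum of 10 choroid plexus markers. In each panel 1 hCG library lies far above all others, at 53.4, 62.3 and 13000 CPM.

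No two-pore member of 9 fitted and no calcium-activated or Slo member of 7 fitted was called in dDG by edgeR's quasi-likelihood test or by DESeq2. In the edgeR fit 1 and 2 of them had an unadjusted p below 0.05, beside 3324 of 13874 genes. The leak channels Kcnk1 and Kcnk2 had log2 fold changes of 0.34 ± 0.24 and -0.11 ± 0.08. Kcnk1 measured 82.7, 141 and 183 CPM in hCG and 62.5, 117 and 154 CPM in Ctrl libraries, overlapping widely. Kcnma1, the large-conductance calcium-activated channel, and Kcnn2, a small-conductance one, had log2 fold changes of -0.06 ± 0.07 and -0.08 ± 0.09. All 7 fitted members of that class had a log2 fold change below 0, with a median of -0.20, beside 48.9% of all genes below 0. The contrast was the one that chose the family, so nothing is read from these signs. The summed CPM of the 8 members of the class was 156 ± 11.4 in hCG and 172 ± 7.53 in Ctrl libraries (SD, n = 6 each). None of the 6 hCG libraries exceeded the Ctrl median, and this sum was not tested.

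Among auxiliary subunits 1 was called higher and 2 lower of 10 fitted, beside 4.67% of all genes higher and 3.19% lower. Kcnip2, a calcium-binding subunit of the A-type channels, measured 298, 315 and 376 CPM in hCG and 234, 243 and 261 CPM in Ctrl libraries. Every hCG library exceeded every Ctrl library, and the log2 fold change was 0.42 ± 0.06. Its RefSeq promoter (chr19:45816014-45816313, minus strand) is shown for the same reason as that of Kcnh4, with CG dinucleotides in capitals. The promoter entry lies inside the listed gene span (chr19:45792346-45816422).
Kcnip2: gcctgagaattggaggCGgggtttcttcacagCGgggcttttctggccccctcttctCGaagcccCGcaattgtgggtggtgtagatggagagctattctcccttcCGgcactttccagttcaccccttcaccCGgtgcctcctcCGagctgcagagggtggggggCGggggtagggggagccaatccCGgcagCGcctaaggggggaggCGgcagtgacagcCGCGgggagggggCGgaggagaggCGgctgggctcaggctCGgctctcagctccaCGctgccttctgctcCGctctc
It holds 18 CG dinucleotides and 67% G and C, and 70.3% of all promoters hold fewer CG dinucleotides. The full cyclic AMP response element TGACGTCA, which reads the same on both strands, was not found in these promoters nor in any of the 92 promoter entries of the family, and 1.79% of all promoters hold it.

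Kcnip4, a relative of Kcnip2 that also binds A-type channels, was lower, with 59.2, 63.1 and 71.1 CPM in hCG and 69.5, 74.8 and 81.9 CPM in Ctrl libraries. All 6 hCG libraries lay below the Ctrl median with slight overlap, at a log2 fold change of -0.23 ± 0.06. Kcnab1, a cytoplasmic beta subunit, measured 135, 151 and 166 CPM in hCG and 170, 182 and 196 CPM in Ctrl libraries, without overlap and with a log2 fold change of -0.27 ± 0.06. The related Kcnab2 was not called at 0.19 ± 0.07, with 826 to 1080 CPM in hCG and 793 to 953 CPM in Ctrl libraries. The median log2 fold change of the 10 fitted members was -0.11, with 6 below 0, while the class sum, in which Kcnab2 and Kcnip2 differ most in CPM, was 1650 ± 75.1 CPM in hCG and 1500 ± 60.2 CPM in Ctrl libraries (SD, n = 6 each), and each of the 6 hCG libraries exceeded the median of the Ctrl libraries.

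The A-type pores that Kcnip2 and Kcnip4 bind, Kcnd2 and Kcnd3, were not called, at -0.05 ± 0.07 and -0.06 ± 0.07. The astrocyte channel Kcnj10 had a log2 fold change of -0.00 ± 0.07. It measured 147, 157 and 199 CPM in hCG and 141, 170 and 173 CPM in Ctrl libraries, with overlapping ranges.

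The table lists 178 transcripts for the family, and 8 of the 12 called genes have more than 1. For Kcnj6 the difference lay in NM_001025584, with 37.6, 43.8 and 49.4 CPM in hCG and 25.6, 31.2 and 35.2 CPM in Ctrl libraries, which did not overlap. The other main Kcnj6 transcript, NM_010606, measured 19.7, 23.9 and 27.8 CPM in hCG and 19.5, 23.9 and 25.6 CPM in Ctrl libraries, and these overlapped. For Kcnip2, NM_145703 separated the groups, with 211, 233 and 268 CPM in hCG and 154, 169 and 191 CPM in Ctrl libraries. These are the deposited estimates, which share reads among transcripts of a gene, and the differences between transcripts were not tested.

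**Figure D4:**
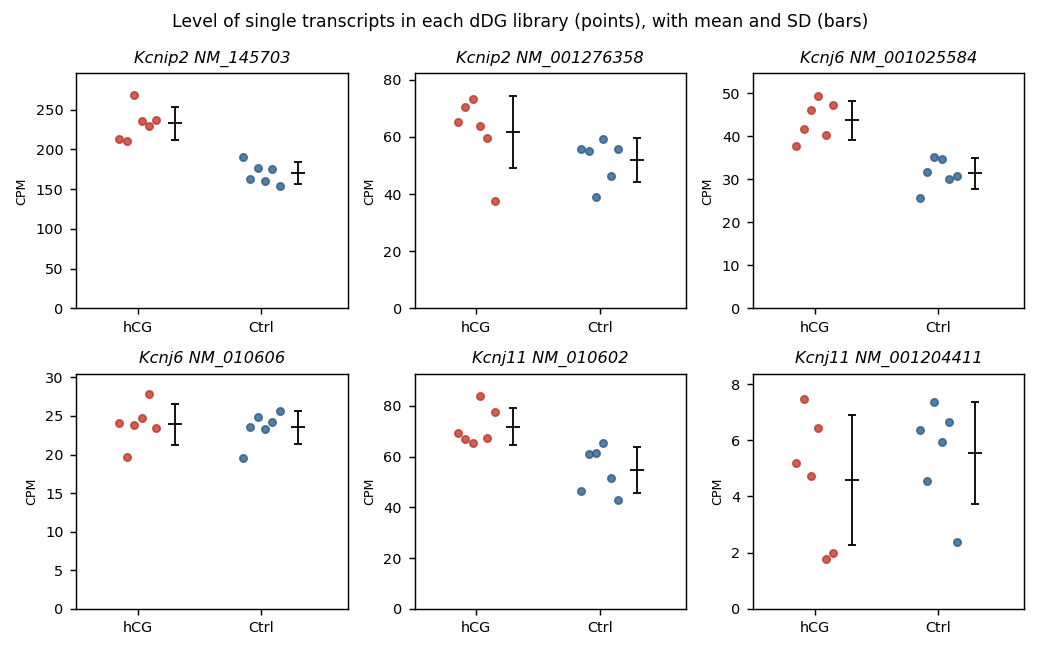
CPM of single transcripts in each dDG library (points, hCG left and Ctrl right) with mean and SD as bars, a pair of transcripts for each of Kcnip2, Kcnj6 and Kcnj11. In each pair the first panel separates the groups, and the second panel overlaps.

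Of the 12 called members, Kcnb2, Kcnh4, Kcnip2, Kcnj6 and Kcnab1 were called in all 18 other settings, which include leaving out each library; since the contrast chose the family, this describes the fits and supports nothing. Kcng1 lost its call without Ctrl library 2 (0.38) or hCG library 4 (0.37). Kcnip4 lost it without hCG library 3, 5 or 6 or Ctrl library 3 or 6 (-0.23 to -0.20), and Kcnv1 without hCG library 2, 3, 4 or 6 or Ctrl library 1, 2, 4 or 6 (-0.56 to -0.49). Kcnj11 lost it without hCG library 1, 2, 3, 4 or 6 or Ctrl library 1, 2, 5 or 6 (0.29 to 0.38), and Kcnj3 without hCG library 2, 3, 5 or 6 or Ctrl library 2, 3, 4, 5 or 6 (-0.23 to -0.18). With the oligodendrocyte markers as a covariate Kcng1, Kcnip4, Kcnv1, Kcnj11 and Kcnj3 lost their calls, with the choroid plexus markers Kcnip4, Kcnv1, Kcnj11 and Kcnj3 lost theirs, and Kcnj3 also lost it with no filter on low counts. The count of members called higher in hCG was 2 without Ctrl library 2. The count of members called lower was 3 without hCG library 6 or Ctrl library 6.

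Of 18 fitted partner genes 2 were called higher in hCG dDG and 1 lower, beside 4.67% of all genes higher and 3.19% lower. The median log2 fold change of the partner genes was 0.01. Beside Abcc8, Lgi1, a secreted protein that acts on axonal potassium channels, was higher at 0.26 ± 0.05 (470 ± 30.1 CPM in hCG and 398 ± 14.6 CPM in Ctrl, SD, n = 6 each). Its receptor Adam23 was lower at -0.42 ± 0.11 (67.2 ± 8.66 CPM in hCG and 90.8 ± 14.7 CPM in Ctrl, SD, n = 6 each). Among 19 fitted sodium, calcium and pacemaker channel genes 5 were called higher and 0 lower by edgeR and by DESeq2, beside 4.67% of all genes higher and 3.19% lower. In the edgeR fit 8 of the 19 had an unadjusted p below 0.05 in either direction, beside 3324 of 13874 genes. Cacna1h, a low-threshold calcium channel, had the highest fold change of the 5 at 0.83 ± 0.11, with 443 ± 82.3 CPM in hCG and 252 ± 28.7 CPM in Ctrl libraries (SD, n = 6 each). The others were Cacna1c (0.28 ± 0.05), Scn3a (0.25 ± 0.07), Scn3b (0.22 ± 0.06) and Cacna1e (0.22 ± 0.06).

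Cell type markers in the same dDG libraries gave the following levels, whose part in the channel values was not tested except by the covariate fits. Among all genes, 4.67% were called higher and 3.19% lower, and 3324 of 13874 had an unadjusted p below 0.05 in the edgeR fit. The 9 granule neuron markers had log2 fold changes with a median of 0.31, and 2 of them were called higher (Prox1 and Glis3). Microglial markers had a median of 0.24 with 3 of 6 called higher, and their summed CPM was 254 to 323 in hCG and 221 to 281 in Ctrl libraries. Endothelial markers had a median of 0.48 with 1 of 5 called higher (Ly6c1, 0.84 ± 0.16), at 109 to 209 CPM in hCG and 95 to 137 CPM in Ctrl libraries. Mural cell markers had a median of 0.49 with 0 of 5 called by edgeR or DESeq2 and 0 with an unadjusted p below 0.05, at 50.5 to 315 CPM in hCG and 63.3 to 188 CPM in Ctrl libraries. The precursor marker Cspg4 was called higher (0.49 ± 0.09), and Pdgfra, the other of 2 precursor markers, was not called (-0.02 ± 0.08). The GABAergic marker Gad1 was called higher (0.19 ± 0.05), while the 7 GABAergic markers had a median of -0.13, with 5 below 0. Markers of CA1 and CA3 pyramidal neurons had a median of -0.02, with 0 of 6 called by edgeR and 1 called higher by DESeq2. Mossy cell markers had a median of -0.03 with 0 of 3 called by either. Astrocyte markers had a median of -0.08, with 0 of 6 called by edgeR and 1 called lower by DESeq2. Oligodendrocyte markers had a median of -0.36 with 0 of 6 called by edgeR or DESeq2 and 1 with an unadjusted p below 0.05, at 1060 to 2490 CPM in hCG and 1120 to 2780 CPM in Ctrl libraries. With the oligodendrocyte sum as a covariate, 3 members were called higher and 3 lower.

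In oocytes, 0 of 12 fitted members were called by edgeR or by DESeq2, against a background of 3.99% of 9564 genes (1.33% higher and 2.67% lower in hCG). An unadjusted p below 0.05 in the edgeR fit was found for 1806 of the 9564 genes, and for 1 of the 12 members. That gene was Kcnh3, an ether-à-go-go family member of the forebrain. It measured 5.95, 16.6 and 20.8 CPM in hCG and 14.8, 20 and 57.6 CPM in Ctrl libraries, with overlap, at a log2 fold change of -0.73 ± 0.33 (edgeR, unadjusted p = 0.0372, adjusted p = 0.229). Of the 12, 0 had groups that did not overlap, against a background of 3.03%. The modifier subunit Kcng2 measured 33, 111 and 139 CPM in hCG and 76.6, 103 and 156 CPM in Ctrl oocytes, at a log2 fold change of -0.18 ± 0.29 (edgeR, adjusted p = 0.8). Kcnh1, a further ether-à-go-go member, measured 43.9, 57.8 and 84.8 CPM in hCG and 20.2, 50.4 and 66.4 CPM in Ctrl oocytes (0.36 ± 0.23; edgeR, adjusted p = 0.428).

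Both groups of Kcng2 and Kcnh1 overlapped widely. Kcnn2 measured 24.9, 27.8 and 50.2 CPM in hCG and 25.8, 39.6 and 65.2 CPM in Ctrl oocytes, at -0.43 ± 0.26 (edgeR, adjusted p = 0.406). Kcnb2 had 54 counts over the hCG and 39 over the Ctrl oocytes and did not pass the filter. The leak channel Kcnk18 had 113 counts over 3 of 6 hCG oocytes and 0 over the 6 Ctrl oocytes. Most of these lay in hCG library 6, at 16.8 CPM, with 5.24 CPM in library 5, 0.479 CPM in library 4 and 0 in the others; the gene was below the filter and no fold change was fitted. Of the members called in dDG, Kcnh4, Kcnip2, Kcnj3 and Kcnj6 had no count in oocytes, and Kcnj11 and Kcnv1 had no row. Having no count allows up to 0.104 CPM over the hCG and 0.112 CPM over the Ctrl libraries (counting error only). Kcnip4, also called in dDG, reached at most 2.97 CPM in an hCG and 0.75 CPM in a Ctrl oocyte. Kcnab1 reached at most 1.5 CPM in hCG and 1.84 CPM in Ctrl.

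Partner genes were fitted for 9 symbols in oocytes, and 1 of them was called lower, beside 1.33% of all genes higher and 2.67% lower. Vapa, a membrane protein of the endoplasmic reticulum that binds delayed rectifiers, fell by 0.73 ± 0.16 on the log2 scale. It measured 293, 346 and 426 CPM in hCG and 436, 581 and 747 CPM in Ctrl oocytes, and the groups did not overlap (edgeR, adjusted p = 0.0111). The adjusted p was at most 0.0435 over 17 other settings. In dDG the log2 fold change of Vapa was -0.02 ± 0.05.

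In blastocysts, 2 of 9 fitted members were called higher in hCG and 0 lower, against a background of 16.3% of 10848 genes (8.68% higher and 7.57% lower). At this share the count is close to the background.

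Kcnn4, the intermediate-conductance calcium-activated channel of non-neuronal cells (chr7:24369826-24385212), measured 1.4, 5.61 and 15.3 CPM in hCG and 0, 2.89 and 10.4 CPM in Ctrl blastocysts. Of the hCG blastocysts 21 of 28 lay above the Ctrl median within overlapping ranges. The Ctrl values of 0 CPM were those of blastocysts 12 and 26, which held the fewest genes. Its level was 5.78 ± 3.46 CPM in hCG and 3.45 ± 2.89 CPM in Ctrl (SD, n = 28 each), at a log2 fold change on log2(CPM + 1) of 0.77 ± 0.24 (limma, adjusted p = 0.0246). The call was lost with edgeR on estimated reads (0.73, adjusted p = 0.121) and without hCG blastocysts 1, 3, 4, 22 and 23 (0.72, adjusted p = 0.0586), which hold both Xist and Y-linked transcripts. The RefSeq promoter of Kcnn4 (chr7:24370013-24370312, plus strand) is shown as that of the called blastocyst member with a single entry, with CG dinucleotides in capitals. This entry lies inside the listed gene span.
Kcnn4: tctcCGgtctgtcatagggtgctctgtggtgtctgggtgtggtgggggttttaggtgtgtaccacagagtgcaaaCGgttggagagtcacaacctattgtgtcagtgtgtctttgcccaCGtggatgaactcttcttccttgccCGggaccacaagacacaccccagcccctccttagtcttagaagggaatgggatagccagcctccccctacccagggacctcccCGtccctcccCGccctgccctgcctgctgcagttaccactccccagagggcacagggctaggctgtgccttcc
It holds 6 CG dinucleotides and 59.7% G and C, and 43.6% of all promoters hold fewer.

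Kcns3, a modifier subunit of delayed rectifiers, and Kcnk6, a two-pore channel, were not called in blastocysts. Kcns3 measured 1.35, 36.8 and 67.9 CPM in hCG and 11.7, 26.3 and 61.5 CPM in Ctrl blastocysts, at 0.18 ± 0.18 (limma, adjusted p = 0.523). Kcnk6 measured 14.8, 24.8 and 54.7 CPM in hCG and 3.66, 20 and 55.5 CPM in Ctrl blastocysts, at 0.38 ± 0.16 (limma, adjusted p = 0.0907). Both overlapped over nearly their whole range, with 22 of 28 hCG blastocysts above the Ctrl median for Kcns3 and 24 of 28 for Kcnk6. Kcnv2, a silent modifier subunit, measured 0.359, 4.8 and 14.1 CPM in hCG and 1.32, 7.43 and 16.4 CPM in Ctrl blastocysts, overlapping, at -0.54 ± 0.22 (limma, adjusted p = 0.0786). Kcnb2 was below the filter, at 0.164 ± 0.36 CPM in hCG and 0.143 ± 0.31 CPM in Ctrl (SD, n = 28 each). All 12 members called in dDG were below the filter in blastocysts, where the highest level of Kcnip2 was 2.72 CPM in hCG and 3.22 CPM in Ctrl.

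**Figure D5:**
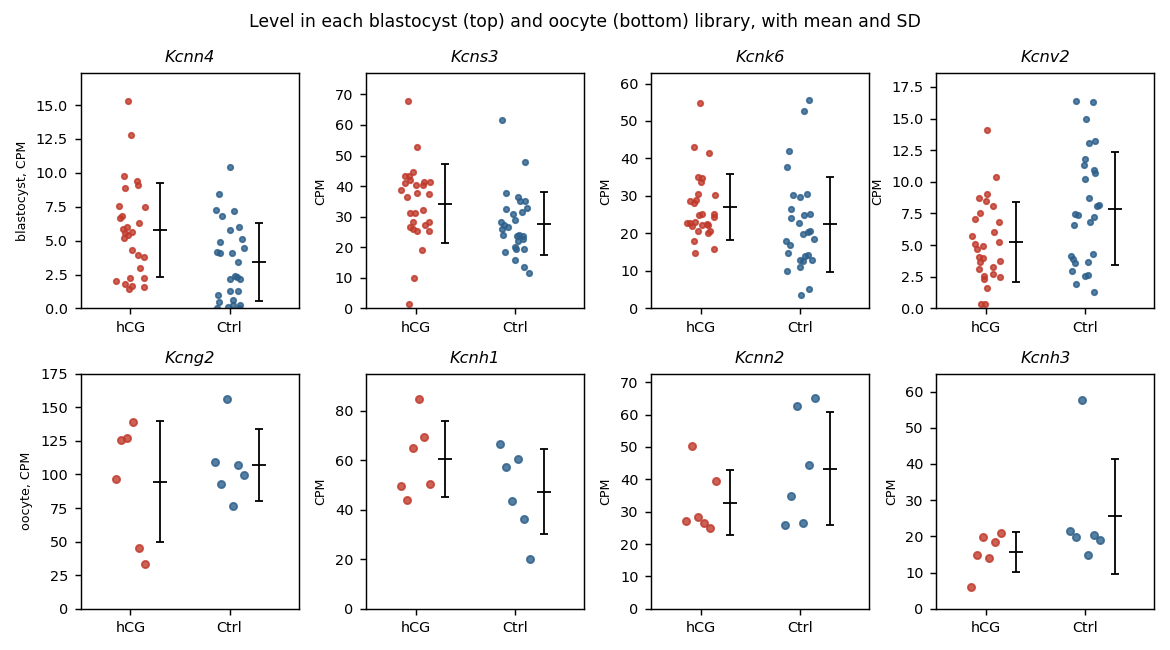
CPM in each blastocyst (top row, 28 hCG left and 28 Ctrl right) and each oocyte (bottom row, 6 and 6) library as points, with mean and SD as bars. The group ranges overlap in every panel, and Kcnn4 is the called member among those shown.

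Of the partner list, Stx1a, a syntaxin of the presynaptic membrane, rose in hCG blastocysts by 0.60 ± 0.20 (limma, adjusted p = 0.0313), with 6.46 ± 2.85 CPM in hCG and 4.08 ± 2.34 CPM in Ctrl (SD, n = 28 each). It was the called gene of 9 fitted partners (11.1%), and 16.3% of all genes were called in the same fit. Of 2 fitted sodium, calcium and pacemaker channel genes, the sodium channel beta subunit Scn2b rose by 0.71 ± 0.24 (limma, adjusted p = 0.0337), with 9.94 ± 4.69 CPM in hCG and 6.51 ± 5.13 CPM in Ctrl. Neither Stx1a nor Scn2b was called higher with edgeR on estimated reads.

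Summed CPM per class was compared in 10 tests, 5 classes in oocytes and 5 in blastocysts, and none passed after Benjamini-Hochberg adjustment. The lowest unadjusted p was for auxiliary members of blastocysts, at 8.2 ± 3.97 CPM in hCG and 6.12 ± 3.36 CPM in Ctrl (SD, n = 28 each; two-sided permutation test, p = 0.0385, adjusted p = 0.272), with 23 of 28 hCG blastocysts above the Ctrl median. Voltage-gated members summed to 54 ± 14.8 CPM in hCG and 47.4 ± 12.5 CPM in Ctrl blastocysts (permutation test, adjusted p = 0.272). In oocytes the voltage-gated sum was 204 ± 50.4 CPM in hCG and 209 ± 45.3 CPM in Ctrl (SD, n = 6 each; exact permutation test, adjusted p = 0.979). The two-pore sum was 43 ± 12 CPM in hCG and 33.8 ± 8.45 CPM in Ctrl oocytes (exact permutation test, adjusted p = 0.274).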

How the data were processed

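RNA was measured as polyA RNA in 12 dDG, 12 oocyte and 56 blastocyst libraries. The sample titles name Smart-seq2 for oocytes and blastocysts and mRNA for dDG. The bisulfite libraries of the study were not analysed here. Per the submitters' processing notes, the study used HTSeq 0.12.4, SAMtools 1.19.1, Bowtie2 and TopHat, also STAR 2.7.6a, and for trimming Trimmomatic 0.32 and Trim Galore 0.6.4, with the builds GRCm38 and mm10; which of them made which table is not given in the sources used here, nor is strand, so reads of overlapping antisense genes cannot be told apart. The deposited dDG table holds expected counts per RefSeq transcript, which were summed by symbol and rounded. The deposited oocyte table holds counts per symbol. The deposited blastocyst table holds a signal scaled by an unstated factor per library; 89 to 93.5% of values were whole multiples of a step (within 0.005 of a step), and values divided by that step are the estimated reads.

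Each material was fitted alone over all genes passing edgeR's filterByExpr defaults, dDG and oocytes with edgeR 4.0.16 (TMM, robust quasi-likelihood test) and blastocysts with limma 3.58.1 on log2(TMM-normalised CPM + 1), in R 4.3.3. P-values were two-sided and Benjamini-Hochberg adjusted over all genes tested, with a threshold of 0.05; printed CPM values were divided by column totals only. The standard error of an edgeR log2 fold change was its size divided by the square root of its F. Class sums were tested by permutation in SciPy 1.17.1, exactly over 924 regroupings in oocytes and with 100000 resamples in blastocysts, with no test in dDG. The precision of each level is limited by depth, and p-values carry the spread between libraries. No library pair held identical values.

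Alternatives were DESeq2 1.42.0, RLE factors, no filter, other pseudocounts, marker covariates, a replicate block, library totals alone, edgeR on estimated blastocyst reads, and fits without single libraries. Oocytes without Ctrl libraries 2 and 4 were an alternative chosen after seeing the data. The members, partner, channel and marker lists were chosen with earlier results of these data known. Some members are not reported here. Named genes were Kcnb2, the other called members, those among the 2 of highest CPM per class in dDG (3 overall in oocytes and blastocysts), and up to 4 called genes of each other list. Genes named outside that rule (Kcns1, Kcnq3, Kcnq5, Kcnj5, Kcnj8, Kcnj9, Kcnj13, Kcne2, Kcnd2, Kcnd3, Kcnk18, Kcnh3 and a further called channel gene) were chosen after their values were seen. Promoters and coordinates are from RefSeq, GRCm38.p6; all 92 symbols matched its gene table and 67 its promoter table. Of the 12 called dDG members 6 have a promoter there, and Kcnb2 has none.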

Additional observations from a re-analysis of the deposited data

Results flagged for a closer look

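Among 48 groups of 6 libraries examined for the named members, 5 held a library that lay far from the others of its group. Chance alone gives about 1 in 20 such groups. The 5 include the hCG groups of Kcne2 and Kcnj13, genes added after their values were seen, so the count cannot be set against that share. Kcne2 was 53.4 CPM in hCG dDG library 6, and the other hCG libraries held 0.173 to 0.304 CPM. Kcnj13 was 62.3 CPM in the same library, and the others held 0.0628 to 2.07 CPM; choroid plexus markers were high there too, and their part in these values was not tested. Kcnj10 was 141 CPM in Ctrl dDG library 5, below 165 to 173 CPM in the other Ctrl libraries. Kcnma1 was 48.9 CPM in that same Ctrl library, below 57 to 59.5 CPM in the others. Kcnn2 was 50.3 CPM in hCG dDG library 1, above 36 to 40.7 CPM in the other hCG libraries.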

How the results depend on the processing

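No called member changed direction in any setting run. In dDG the 6 members called higher numbered 3 with the oligodendrocyte covariate and 2 to 6 when each library was left out. The 6 members called lower numbered 3 with the choroid plexus covariate and 3 with the oligodendrocyte covariate. Members called lower numbered 3 to 7 when each library was left out. With the replicate block 3 members were called higher, and 5 called members, Kcnip4, Kcnj11 and Kcnj3 among them, lost their call. Replicate numbers did not pair the libraries (correlation of same-numbered libraries -0.149 to 0.176, 0 of 12 libraries closest to their own number). Under the block 4.2% of all genes were called. In blastocysts 1 member was called higher with edgeR on estimated reads (1548 of all genes called), 1 at a pseudocount of 0.1, and 1 without the 5 libraries holding Xist and Y-linked transcripts. No oocyte member was called in 17 settings, including the one without Ctrl libraries 2 and 4. The summed CPM of auxiliary members in oocytes, hCG minus Ctrl, ranged from -6.2 to -0.815 when each library was left out, and reached an unadjusted p of 0.0216 (exact permutation test) without Ctrl library 4. Over the other settings, with the main fits left out, the share of all genes called ranged from 3.86 to 8.81% in dDG, 2.12 to 6.72% in oocytes and 7.22 to 16% in blastocysts. The causes were not tested.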
